A study of Mus musculus with 6 samples.

Results

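Aminoacyl-tRNA synthetases attach each amino acid to its matching tRNA and so supply the substrates of every ribosome. Cytosolic enzymes serve translation in the cytoplasm, and a separate set, also encoded in the nucleus and named with a final 2, serves the ribosomes inside mitochondria. Several cytosolic enzymes are held together with scaffold proteins in a multi-synthetase complex, and glycyl- and lysyl-tRNA synthetase each serve both compartments from a single gene. Mutations in many of these genes cause inherited disease of nerve or brain in humans. The 36 genes described here are 20 cytosolic and 16 mitochondrial synthetases, taken by symbol from the 32531 gene symbols of the deposited count tables. The rule used symbols and no measured value, but the members were chosen with earlier results of these data known. All 36 were above the filter on low counts that left 16506 genes for testing.

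RNA came from cerebral cortex of untreated adult Htr4-EGFP/Rpl10a mice, line ES1299. These animals carry the ribosomal protein Rpl10a joined to the fluorescent protein EGFP, made in cells that use regulatory sequence of Htr4, a serotonin receptor gene. In translating ribosome affinity purification (TRAP), tagged ribosomes are captured with antibodies to EGFP and the RNA bound to them is sequenced. The immunoprecipitated libraries (IP, n = 3) hold that RNA, and the input libraries (n = 3) hold cortical RNA of the same line, so the transgene is present in both groups. The sources used here do not state sex, strain background or the number of animals behind a library, and cortex without the transgene is not analysed here. Since the replicates are not stated to be separate animals, p-values measure the spread between these libraries, which may be technical. The libraries were sequenced on lanes 1 to 3, one IP and one input library on each, and one index sequence marks all IP libraries and another all input libraries, so index and group cannot be told apart.

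Reads assigned to genes numbered 53147173, 67559533 and 67080643 in the IP libraries, against 37696125, 50428338 and 52360452 in the input libraries. A count of 3 reads corresponds to between 0.0430 and 0.0817 CPM, the unit of all levels here (a gene's reads relative to its library's total after TMM scaling), below every synthetase value given here. Of the neuronal markers, 4 of 5 were higher in IP and Syt1 was not called. Among all tested genes, 21.3% were higher and 23.4% lower. The summed level of the 5 was 26600 to 28490 CPM in IP libraries against 18400 to 21680 CPM in input libraries. Most of that sum was Snap25, with a mean of 24280 CPM in IP and 17380 CPM in input. The pyramidal neuron markers Neurod6 and Fezf2 were higher in IP, as were the interneuron markers Vip and Sst, while Slc17a7, Camk2a, Gad1, Gad2 and Pvalb did not pass the test. All 5 astrocyte, all 5 oligodendrocyte and all 5 microglial markers were lower in IP, with summed levels of 12.1 to 16.6 against 259 to 264 CPM, 127 to 150.1 against 1059 to 1210 CPM, and 1.64 to 3.55 against 39.9 to 45.7 CPM. The endothelial marker Tek had 0 reads in every IP library. The part of this difference in cell types in the synthetase results was not tested, and in bulk samples fewer cells of a type and less RNA per cell cannot be told apart.

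Many cytosolic synthetase genes were higher in the ribosome-bound RNA and none was lower. Of 20 genes, 10 were higher in IP and 0 lower at an adjusted p under 0.05 (edgeR's quasi-likelihood test with Benjamini-Hochberg adjustment over all genes tested), against 21.3% of all tested genes higher and 23.4% lower, or 44.8% in either direction. The median log2 fold change (IP over input) of the cytosolic genes was 0.38, with a range from -0.29 to 0.79, beside a median of -0.02 over all tested genes. Within lanes 1, 2 and 3 the median of the cytosolic genes was 0.23, 0.32 and 0.34. In 12 of the 20 genes every IP library lay above every input library, which held for 26.5% of all tested genes, and in 1, Lars, every IP library lay below, which held for 29.5%. The summed level of the 20 genes was 1133, 1231 and 1184 CPM in IP libraries, against 950.5, 1009 and 955 CPM in input libraries, so the groups did not overlap.

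**Figure D1:**
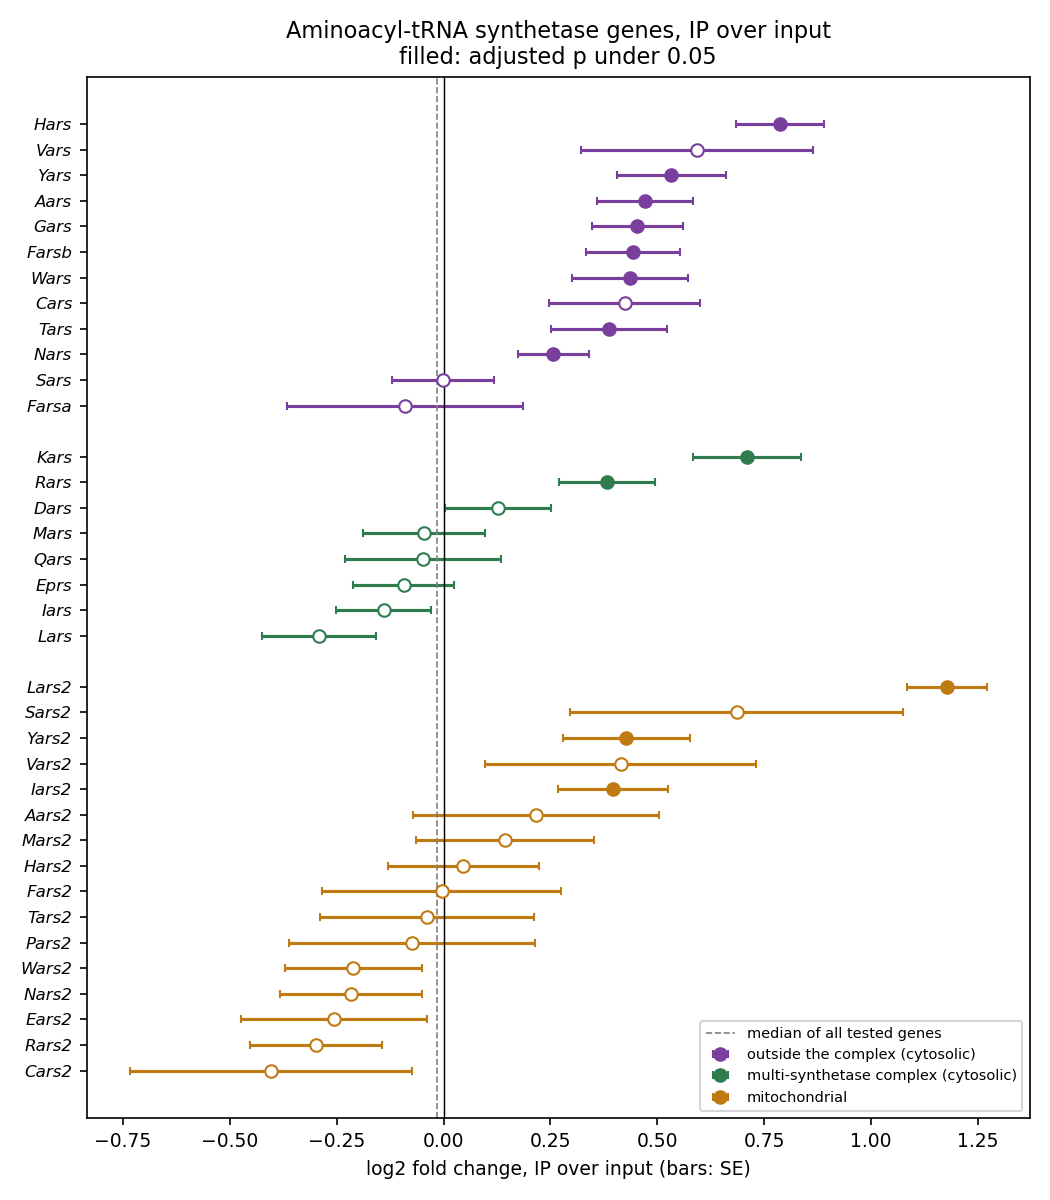
Log2 fold change (IP over input) of the 36 synthetase genes with its standard error (edgeR, 3 libraries a group), with filled points for an adjusted p under 0.05, cytosolic genes split by the multi-synthetase complex and mitochondrial genes at the bottom. Lars2 stands highest at 1.18 and Hars leads the cytosolic genes at 0.79, while Cars2 is lowest at -0.40 without passing the test.

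The largest difference among cytosolic genes was that of Hars, histidyl-tRNA synthetase (chr18:36766528-36783205, minus strand, mm10 as in GENCODE M21). Hars had 61.7, 66.1 and 70.5 CPM in IP libraries, against 39.5, 37.7 and 37.7 CPM in input libraries. Its log2 fold change was 0.79 (SE 0.10, adjusted p = 0.000102), and the lowest IP value lay well above the highest input value. Hars and its mitochondrial counterpart Hars2 lie head to head, and 195 bases at the 5′ end of the Hars transcript are also Hars2 sequence, which is 9.8% of that transcript. The sources used here do not say how such shared bases were counted.

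Kars, lysyl-tRNA synthetase (chr8:111993443-112011323, minus strand), followed. It had 43.7, 47.6 and 40.1 CPM in IP libraries, against 27.1, 29.3 and 23.98 CPM in input libraries, with a log2 fold change of 0.71 (SE 0.13, adjusted p = 0.000815). Its lane values of 0.69, 0.70 and 0.74 lay close together. Gars, glycyl-tRNA synthetase (chr6:55038007-55079500, plus strand), had 89.4, 95.6 and 83.7 CPM in IP libraries, against 62.3, 73.4 and 60.6 CPM in input libraries, and a log2 fold change of 0.45 (SE 0.11, adjusted p = 0.00472). Kars and Gars are the genes that supply both compartments, and for neither did the groups overlap.

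Yars, tyrosyl-tRNA synthetase (chr4:129189760-129219607, plus strand), had 55.8, 70.0 and 59.0 CPM in IP libraries, against 40.0, 48.5 and 39.3 CPM in input libraries. The log2 fold change was 0.53 (SE 0.13, adjusted p = 0.00501). Aars, alanyl-tRNA synthetase (chr8:111033144-111057664, plus strand), had 65.8, 65.3 and 67.9 CPM in IP libraries, against 49.2, 52.8 and 41.5 CPM in input libraries. The IP libraries of Aars were close to each other and the input libraries more spread, with a log2 fold change of 0.47 (SE 0.11, adjusted p = 0.00494). Of the Aars transcript, 23.1% is also annotated as Exosc6 on the same strand, so reads there cannot be given to one gene by sequence.

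Farsb, the beta subunit of cytosolic phenylalanyl-tRNA synthetase, had 78.3, 74.2 and 62.6 CPM in IP libraries, against 53.2, 54.6 and 50.5 CPM in input libraries (log2 fold change 0.44, adjusted p = 0.00642). Its partner Farsa, the alpha subunit of the same enzyme, had 4.29, 6.12 and 7.90 CPM in IP libraries, against 7.03, 7.63 and 4.85 CPM in input libraries, and these groups overlapped. The 2 subunits form one enzyme in equal numbers, but their genes differed in level: per kilobase of the longest coding transcript, Farsb had 35.2 CPM in IP and 25.9 CPM in input, and Farsa 3.34 CPM per kilobase in IP and 3.56 in input. Of the Farsb transcript, 12.3% is also annotated as Sgpp2 on the opposite strand. Whether reads were counted by strand is not stated in the sources used here.

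Wars, tryptophanyl-tRNA synthetase, had 56.8, 66.9 and 47.5 CPM in IP libraries, against 44.3, 43.8 and 38.4 CPM in input libraries (log2 fold change 0.44, adjusted p = 0.0201). Rars, arginyl-tRNA synthetase, had 55.8, 58.1 and 48.0 CPM in IP libraries, against 40.6, 43.3 and 40.3 CPM in input libraries (log2 fold change 0.38, adjusted p = 0.0157). Tars, threonyl-tRNA synthetase, had 21.1, 22.2 and 23.5 CPM in IP libraries, against 17.2, 17.6 and 16.3 CPM in input libraries (log2 fold change 0.39, adjusted p = 0.0358). None of these groups overlapped, and the lowest Wars and Rars values in IP stood only a little above the highest in input. Wars missed the threshold without IP replicate 2, input replicate 2 or input replicate 3, and Tars without any single library other than IP replicate 1. Nars, asparaginyl-tRNA synthetase and the most abundant of the cytosolic genes, had 332, 360.5 and 380.4 CPM in IP libraries, against 296, 307 and 295 CPM in input libraries. Its log2 fold change of 0.26 (SE 0.08, adjusted p = 0.0250) was the smallest among the 10 genes that rose, and it missed the threshold without IP replicate 3 or without any one input library. Nars alone took between 29.3% and 32.1% of cytosolic synthetase reads across the 6 libraries.

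Among the other 10 cytosolic genes, Cars, cysteinyl-tRNA synthetase, and Vars, valyl-tRNA synthetase, had every IP library above every input library without passing the test. Cars had 12.7, 18.3 and 17.4 CPM in IP libraries, against 11.7, 11.8 and 12.6 CPM in input libraries (log2 fold change 0.42, adjusted p = 0.0704, and 0.0164 without IP replicate 1). Vars had 6.01, 4.76 and 5.08 CPM in IP libraries, against 2.78, 4.20 and 3.52 CPM in input libraries (log2 fold change 0.59, adjusted p = 0.0966). Sars, seryl-tRNA synthetase, averaged 55.8 ± 6.80 CPM in IP and 55.8 ± 4.60 CPM in input (SD, n = 3 each), with a log2 fold change of 0.00 and an SE of 0.12. Lars, leucyl-tRNA synthetase, had 18.7, 20.4 and 21.95 CPM in IP libraries, against 24.4, 24.1 and 26.1 CPM in input libraries. The groups of Lars did not overlap, in the opposite direction to the genes above, but its log2 fold change of -0.29 (SE 0.13) did not pass the test at an adjusted p of 0.0948.

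**Figure D2:**
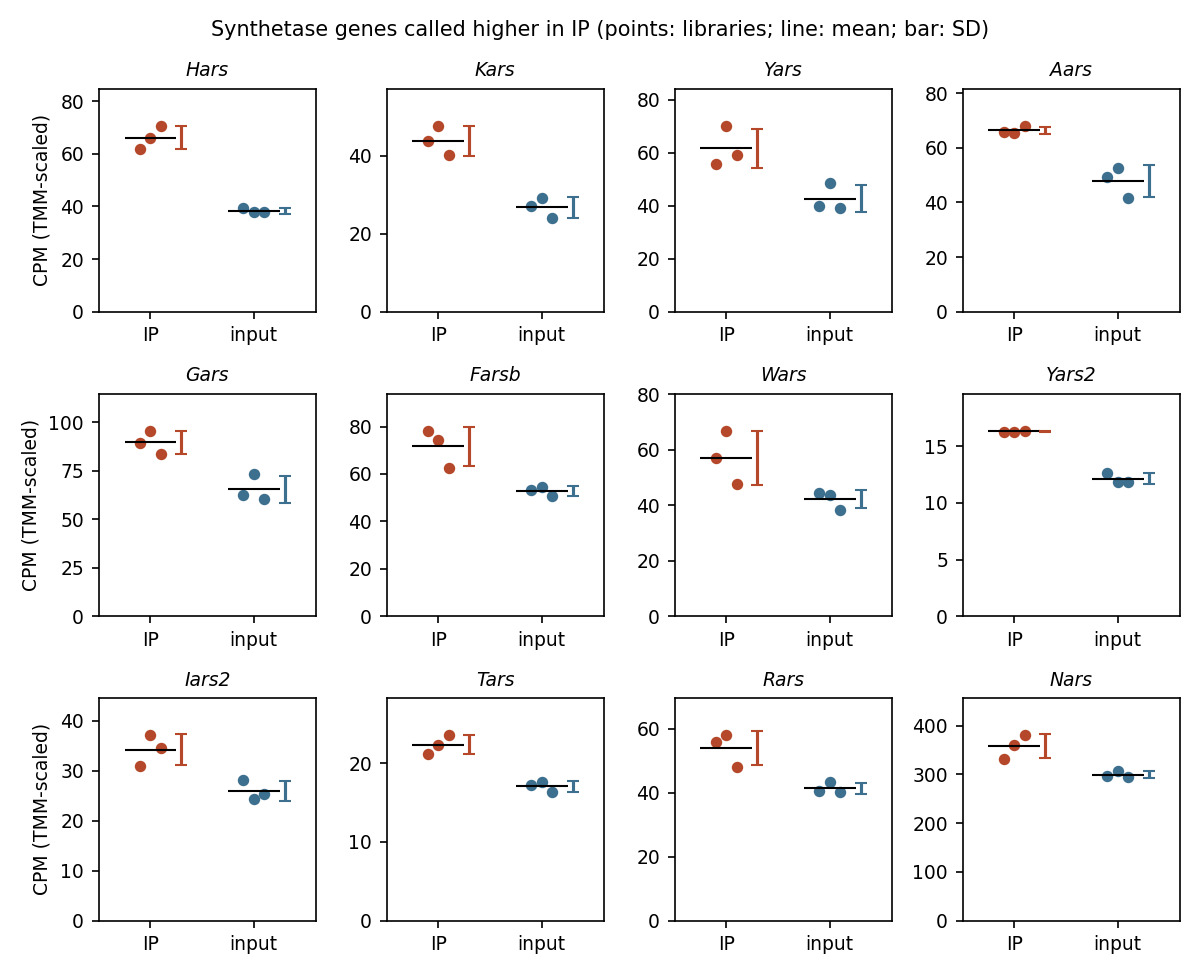
Level in each library, in TMM-scaled CPM, of the synthetase genes that were higher in IP, other than Lars2, with IP left of input (points are libraries, lines means, bars SD, n = 3 each). In each gene the 3 IP points stand above the 3 input points, as for Hars with 61.7 to 70.5 CPM in IP and 37.7 to 39.5 CPM in input.

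The genes of the multi-synthetase complex differed among themselves. Of the 8 enzymes of the complex that are members here, 2 were higher in IP, Kars and Rars, a share near the 21.3% of all tested genes, and the median log2 fold change of the 8 was -0.05. The values of the other 6 were 0.13 for Dars (aspartate), -0.05 for Mars (methionine), -0.05 for Qars (glutamine), -0.09 for Eprs (glutamate and proline on one chain), -0.14 for Iars (isoleucine) and -0.29 for Lars (leucine). Of the 12 cytosolic genes outside the complex, 8 were higher in IP, with a median of 0.44, and 5 were without input replicate 2 or without input replicate 3. The difference between the 2 classes was not tested. Summed over the complex, the level was 299.6, 326.8 and 295 CPM in IP libraries, against 276, 290 and 298 CPM in input libraries, and the groups overlapped. Summed over the enzymes outside it, the level was 834, 904 and 889 CPM in IP libraries, against 674, 719 and 657 CPM in input libraries, without overlap. With a correction for transcript length and GC content, 4 of the 8 and 9 of the 12 were higher, beside 39.6% of all genes tested that way. The median log2 fold change of all genes was then 0.31, against -0.02 without the correction. Dars and Eprs were the additions in the complex. For Iars, 49.9% of the transcript is at least 95% identical to the pseudogene Gm4849, so its count is uncertain.

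The non-enzymatic proteins of the complex were not uniform either. Eef1e1, a scaffold protein related to elongation factors, had 36.9, 31.0 and 36.4 CPM in IP libraries, against 22.6, 19.8 and 18.0 CPM in input libraries (log2 fold change 0.79, adjusted p = 0.000754). Aimp2, the scaffold protein that holds lysyl-tRNA synthetase, had 13.8, 12.1 and 16.3 CPM in IP libraries, against 7.11, 9.38 and 7.68 CPM in input libraries (log2 fold change 0.80, adjusted p = 0.00495). Both rose without overlap of the groups. Aimp1, which binds arginyl-tRNA synthetase, had 20.5, 23.7 and 18.9 CPM in IP libraries, against 20.4, 20.5 and 17.6 CPM in input libraries, with overlap and an adjusted p of 0.573.

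Promoter sequence was examined because many cytosolic synthetase genes are known targets of ATF4, a transcription factor made when amino acids are short. ATF4 binds with C/EBP partners at the amino acid response element, searched here as TGATGNAA on both strands, from 250 bases before to 50 after the start site in RefSeq promoters of GRCm38.p6. Of the 36 genes, 27 were matched, 13 cytosolic and 14 mitochondrial. The motif was present in 5 of the 13 cytosolic promoters (38.5%) and in 0 of the 14 mitochondrial ones, against 4.51% of all 27025 promoters and 2.73% of 11350 promoters of tested genes. A match is a description of the letters and not of binding. The stretches that hold it are printed 5′ to 3′ on the strand of the gene with the motif in capitals, and a motif on the opposite strand reads TTGCATCA or TTTCATCA. Aars holds a second match at position 10 after the start site, which is not shown. The stretches are the 130 bases before the start site of Aars (chr8:111033712-111033841, plus strand), Gars (chr6:55037871-55038000, plus strand) and Tars (chr15:11399659-11399788, minus strand). For Yars (chr4:129189903-129189932, plus strand) and Iars (chr13:49682130-49682159, plus strand) they are the first 30 bases from the start site. Start sites are those of RefSeq. The GENCODE genes of Aars, Yars and Iars begin upstream of these stretches, and that of Tars begins within its stretch.
Aars: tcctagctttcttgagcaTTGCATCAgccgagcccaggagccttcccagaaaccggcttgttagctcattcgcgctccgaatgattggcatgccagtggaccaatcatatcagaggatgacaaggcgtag
Gars: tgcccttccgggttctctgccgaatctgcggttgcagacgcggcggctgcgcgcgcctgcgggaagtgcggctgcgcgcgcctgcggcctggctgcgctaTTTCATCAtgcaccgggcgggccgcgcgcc
Tars: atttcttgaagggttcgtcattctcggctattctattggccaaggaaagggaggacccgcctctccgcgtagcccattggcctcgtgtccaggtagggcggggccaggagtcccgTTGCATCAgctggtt
Yars: agcTGATGCAAcccgacgggactagcgtga
Iars: gtcagtaTTGCATCAcctccagacgcggaa

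Of these 5 genes, Aars, Gars, Tars and Yars were higher in IP and Iars was not, with a median log2 fold change of 0.45. Among all tested genes, 21.3% were higher. The 4 became 3 when 3 libraries had to reach 1 CPM. Tars, the gene lost there, also missed the threshold without any single library other than IP replicate 1. Of the 8 cytosolic genes whose matched promoter lacks these letters, 2 were higher, Farsb and Kars, and the median was -0.02. That count is near the 21.3% of all tested genes. With the length and GC correction 4 of these 8 were higher, beside 39.6% of all genes. Cytosolic genes without a matched promoter are in neither class. Of these, Hars, Nars, Rars and Wars were higher, and Cars, Lars and Vars were not called. The difference between these classes was not tested. The palindromic motif of NRF1, a factor known for nuclear genes of mitochondrial and housekeeping function, was searched as GCGCA and GCGC with any single base between them, and was present in 3 of the 13 cytosolic promoters (23.1%, Farsb, Kars and Tars) and in 2 of the 14 mitochondrial ones (14.3%, Iars2 and Mars2), against 10.4% of tested genes and 5.19% of all promoters. The cyclic AMP response element TGACGTCA was present in 0 of the 13 and 0 of the 14, against 3.44% of tested genes. The Kars promoter is shown because it had the second largest cytosolic difference and carries the NRF1 letters, in capitals and here on the opposite strand, in its 130 bases before the start site (chr8:112011355-112011484, minus strand).
Kars: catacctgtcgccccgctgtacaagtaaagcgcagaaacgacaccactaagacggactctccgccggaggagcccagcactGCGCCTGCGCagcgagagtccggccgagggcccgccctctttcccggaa

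Among regulators of ATF4 the picture was mixed. Atf4 itself had 205.6, 190.5 and 219.6 CPM in IP libraries, against 137, 145 and 132 CPM in input libraries (log2 fold change 0.57, adjusted p = 0.000342). Eif2ak1, a kinase of the translation factor eIF2 upstream of ATF4, had 119, 151 and 132 CPM in IP libraries, against 83.4, 78.7 and 87.2 CPM in input libraries (log2 fold change 0.69, adjusted p = 0.000293). Eif2ak2, the eIF2 kinase that responds to double-stranded RNA, was lower (log2 fold change -0.99, adjusted p = 0.0269), and so was Gcn1l1, a partner of the amino acid sensing kinase (log2 fold change -0.61, adjusted p = 0.0140). In all, 2 of 8 regulators were higher and 2 lower, with a median of -0.13. These counts are also near the shares of all tested genes. The count of lower ones was 0 with the length and GC correction, 0 without input replicate 1 and 1 without IP replicate 1, input replicate 2 or input replicate 3. It was 3 with DESeq2, limma-voom, RLE scaling or the replicate number as a block, and 3 when 3 libraries had to reach 1 CPM.

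The ATF4 targets that are not synthetases held genes that rose and genes that fell, in shares near those of all tested genes (21.3% higher and 23.4% lower). Of 20 listed, Trib3 was too low to test, and of the other 19, 5 were higher and 4 lower, with a median of 0.18. The count of higher ones was 3 with the replicate number as a block, 3 without IP replicate 1, IP replicate 3 or input replicate 1, and 2 without input replicate 2 or input replicate 3. Asns, asparagine synthetase, had 80.4, 90.9 and 107.9 CPM in IP libraries, against 67.8, 72.1 and 61.2 CPM in input libraries (log2 fold change 0.47, adjusted p = 0.00725). Slc7a5, a transporter of large neutral amino acids, had 37.6, 44.5 and 47.5 CPM in IP libraries, against 22.8, 29.4 and 32.1 CPM in input libraries (log2 fold change 0.62, adjusted p = 0.00538). Cebpb, Chac1 and Mthfd2 were also higher. Slc7a11, the cystine transporter, had 4.32, 4.76 and 5.23 CPM in IP libraries, against 69.8, 52.8 and 71.5 CPM in input libraries (log2 fold change -3.76, adjusted p = 1.46e-08). Psat1 and Phgdh, enzymes of serine synthesis, and Vldlr, a lipoprotein receptor, were the other genes that fell. In brain Slc7a11 and Phgdh are known as astrocyte genes, and the summed astrocyte markers stood at 12.1 to 16.6 CPM in IP against 259 to 264 CPM in input; their part in these values was not tested.

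**Figure D3:**
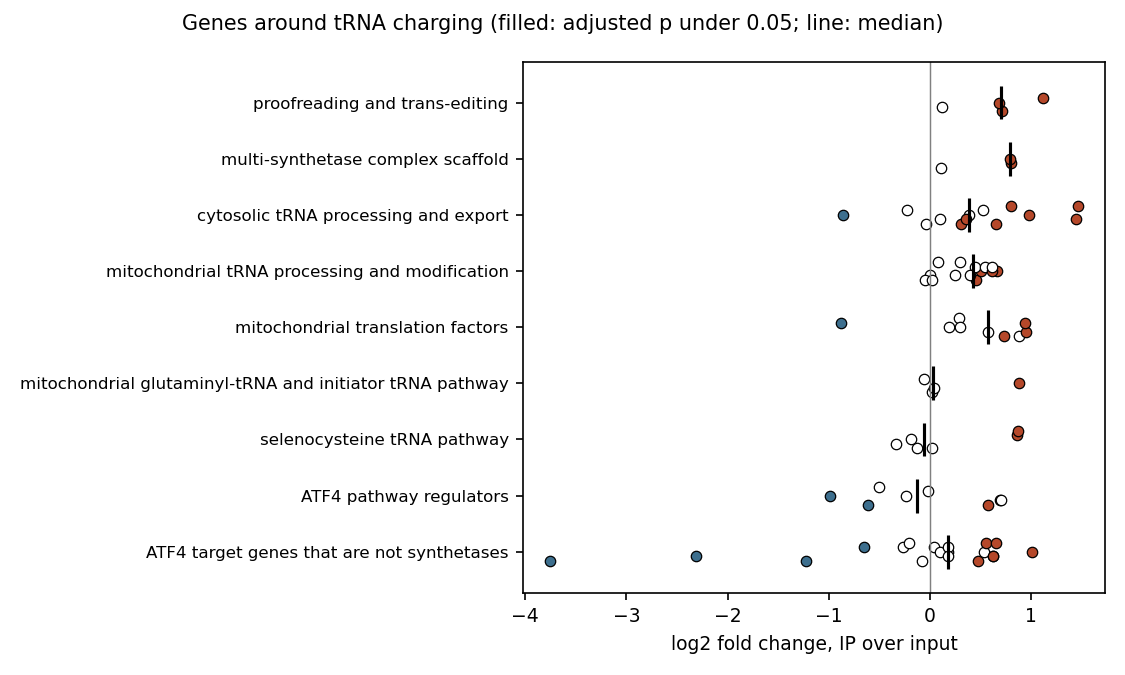
Log2 fold change (IP over input) of the genes in each neighbouring list, with one point per gene, filled where the adjusted p was under 0.05, and the list median as a line. The proofreading list has a median of 0.70 and the ATF4 regulators one of -0.13, while the ATF4 targets spread from -3.76 to 1.01.

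Most mitochondrial synthetase genes did not pass the test. Of 16 genes, 3 were higher in IP and 0 lower (3 of 16 beside the 21.3% of all tested genes higher), with a median log2 fold change of 0.02 and a range from -0.40 to 1.18. Within lanes 1, 2 and 3 the median of the mitochondrial genes was 0.03, -0.07 and 0.34, so in lane 3 it was level with the cytosolic median. The 3 were Lars2, Yars2 and Iars2. The count was 1 without input replicate 2 and 1 without input replicate 3. Without Lars2, a list trimmed after its value was seen, 2 of 15 were higher (1 when 3 libraries had to reach 1 CPM) and the median was 0.00, and the summed level of the 15 was 143, 155 and 151 CPM in IP libraries, against 147, 148 and 135 CPM in input libraries, with overlap. Whether the cytosolic and mitochondrial counts differ beyond the spread between libraries was examined only through the paired genes described further on.

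Lars2, mitochondrial leucyl-tRNA synthetase (chr9:123366927-123462666, plus strand), was unlike every other member in level. It had 3083, 3538 and 3392 CPM in IP libraries, against 1434, 1645 and 1349 CPM in input libraries. The log2 fold change was 1.18 (SE 0.09, adjusted p = 2.47e-06), a 2.26-fold higher level in IP. Its reads numbered from 171851 to 246747 in IP libraries, against 52649 to 82728 in input libraries. They made up 70.7% to 71.8% of all synthetase reads in IP, against 55.3% to 58.7% in input. Per kilobase of transcript Lars2 had 857 CPM in IP, rank 14 of 13709 tested genes with a length, and 379 CPM in input, rank 34.

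A level of this height in Lars2 was set beside ribosomal RNA. Rn45s, the precursor of ribosomal RNA, took 3.27%, 4.44% and 5.16% of gene reads in IP libraries, against 2.28%, 2.51% and 1.82% in input libraries. Another row, AK140265, took 0.153% to 0.253% of gene reads in IP and 10.85% to 12.99% in input, and these reads enter the total behind the Rn45s shares. The log2 ratio of Lars2 to Rn45s reads was -3.34, -3.60 and -3.90 in IP libraries, against -4.03, -3.93 and -3.86 in input libraries, so that ratio overlapped between the groups while Lars2 itself did not. Of the 3894 bases of the Lars2 transcript, 122 (3.13%) match another annotated transcript at 95% identity or more over at least 50 bases. The chief match was to Gm15564, annotated as antisense RNA, over 72 bases at positions 3278 to 3349 with 98.6% identity. Reads within Lars2 cannot be placed from a table of one count per gene, and the part of Rn45s or Gm15564 in the Lars2 value was not tested.

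Yars2, mitochondrial tyrosyl-tRNA synthetase (chr16:16302965-16309640, plus strand), had 16.2, 16.3 and 16.4 CPM in IP libraries, against 12.7, 11.8 and 11.9 CPM in input libraries. Its log2 fold change was 0.43 (SE 0.15, adjusted p = 0.0340). Iars2, mitochondrial isoleucyl-tRNA synthetase (chr1:185284726-185329396, minus strand), had 30.9, 37.1 and 34.6 CPM in IP libraries, against 28.2, 24.3 and 25.4 CPM in input libraries, with a log2 fold change of 0.40 (SE 0.13, adjusted p = 0.0248). Neither gene's groups overlapped. Yars2 missed the threshold without any single library other than input replicate 1, and Iars2 without IP replicate 2, input replicate 2 or input replicate 3. Of the Iars2 transcript, 37.2% is also annotated as Rab3gap2 on the opposite strand, and the sources used here do not say whether reads were counted by strand.

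Of the other 13 mitochondrial genes, only Rars2, mitochondrial arginyl-tRNA synthetase, had groups that did not overlap. It had 11.98, 13.4 and 11.6 CPM in IP libraries, against 15.4, 15.4 and 14.6 CPM in input libraries, and did not pass the test (log2 fold change -0.30, SE 0.15, adjusted p = 0.137). Sars2, the mitochondrial seryl enzyme, had the second highest log2 fold change of the class at 0.69 with the widest standard error at 0.39. It had 3.68, 1.94 and 4.85 CPM in IP libraries, against 2.48, 2.11 and 1.92 CPM in input libraries, with overlap and an adjusted p of 0.176, and it passed without IP replicate 2 (adjusted p = 0.0347). Cars2, the cysteinyl enzyme, had the lowest log2 fold change at -0.40 (SE 0.33), with 4.68, 3.43 and 3.22 CPM in IP libraries and 5.04, 6.90 and 3.05 CPM in input libraries. The log2 fold changes of the other 10 lay between -0.26 for Ears2, the glutamyl enzyme, and 0.41 for Vars2, the valyl enzyme.

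Levels of different genes were set side by side per kilobase of the longest coding transcript. The median of the 20 cytosolic genes was 13.9 CPM per kilobase in IP and 12.7 in input, and that of the 15 mitochondrial genes other than Lars2 was 1.99 in IP and 2.63 in input. Nars followed Lars2 with 130.3 CPM per kilobase in IP and 109 in input. After these came Gars with 37.6 in IP and 27.5 in input, and Farsb with 35.2 in IP and 25.9 in input. At the low end of the cytosolic genes stood Vars, with 1.28 CPM per kilobase in IP and 0.846 in input, below most mitochondrial genes. Rars2 was the highest mitochondrial gene after Lars2 with 6.60 in IP and 8.12 in input. Neighbours in this order are close, and no order among them was tested. Mars2, the mitochondrial methionyl enzyme, came last in IP with 0.972 CPM per kilobase, and its longest coding transcript has 11294 bases, which lowers any value per kilobase.

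**Figure D4:**
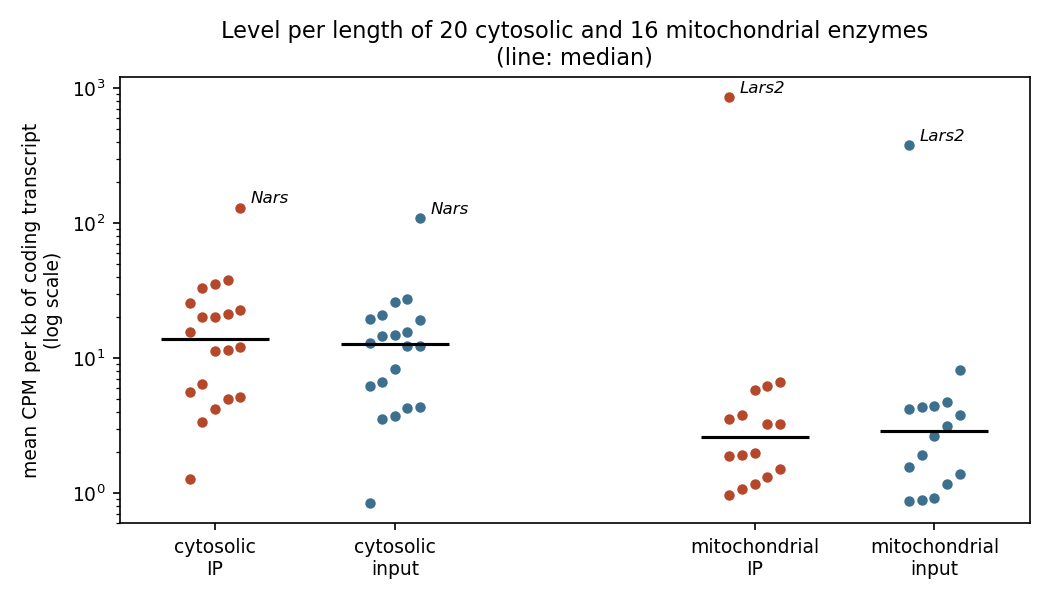
Mean level of each synthetase gene in CPM per kilobase of its longest coding transcript on a log axis, one point per gene, with IP left of input and medians (Lars2 included) as lines. Lars2 stands apart at 857 in IP and 379 in input, Nars is next at 130.3 in IP and 109 in input, and most mitochondrial genes lie below most cytosolic ones.

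Each mitochondrial gene was then set against the cytosolic gene for the same amino acid within a library, which removes the library size from the comparison. The cytosolic partner of Fars2 was the sum of Farsa and Farsb. Of 16 such ratios, 12 had a lower mean in IP, 9 were lower in IP within each of the 3 lanes, and the median difference in log2 ratio was -0.27. In 7 pairs every IP ratio lay below every input ratio, those of Aars2, Fars2, Hars2, Nars2, Rars2, Tars2 and Wars2. In 2 pairs every IP ratio lay above, those of Lars2 and Iars2. A 2-sided exact permutation test of 3 against 3 libraries cannot go below p = 0.1, which each of these 9 pairs had, so no single pair can pass 0.05. Pars2 and Ears2 share the partner Eprs, and the ratios are therefore not independent. In levels of single genes, every IP library lay below every input library for 29.5% of all tested genes and above for 26.5%. No such share was computed for ratios of other gene pairs.

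The largest shift among the 7 was that of histidine. The log2 ratio of Hars2 to Hars reads was -2.38, -2.81 and -2.68 in IP libraries, against -2.07, -1.76 and -1.83 in input libraries, a difference of -0.74. For Rars2 to Rars it was -2.22, -2.11 and -2.05 in IP libraries, against -1.40, -1.49 and -1.46 in input libraries, a difference of -0.68. For Wars2 to Wars it was -2.01, -1.80 and -1.49 in IP libraries, against -1.20, -1.05 and -1.11 in input libraries, a difference of -0.64. In all 3 pairs the cytosolic gene was higher in IP and the mitochondrial gene was not called. For Nars2 to Nars the ratio was -4.70, -4.81 and -5.08 in IP libraries, against -4.22, -4.38 and -4.58 in input libraries, and the groups stood close, with a difference of -0.47.

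Leucine and isoleucine ran the other way. The log2 ratio of Lars2 to Lars reads was 7.36, 7.44 and 7.27 in IP libraries, against 5.88, 6.09 and 5.69 in input libraries, a difference of 1.47. For Iars2 to Iars it was -0.72, -0.43 and -0.47 in IP libraries, against -0.79, -1.16 and -1.25 in input libraries, a difference of 0.53, and the first IP library lay close to the input libraries. The Cars2 to Cars difference of -0.75 was as large as that of histidine but its groups overlapped. Per kilobase, the mitochondrial gene exceeded its cytosolic partner in 1 pair in IP, Lars2, and in 2 pairs in input, Lars2 and Vars2.

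**Figure D5:**
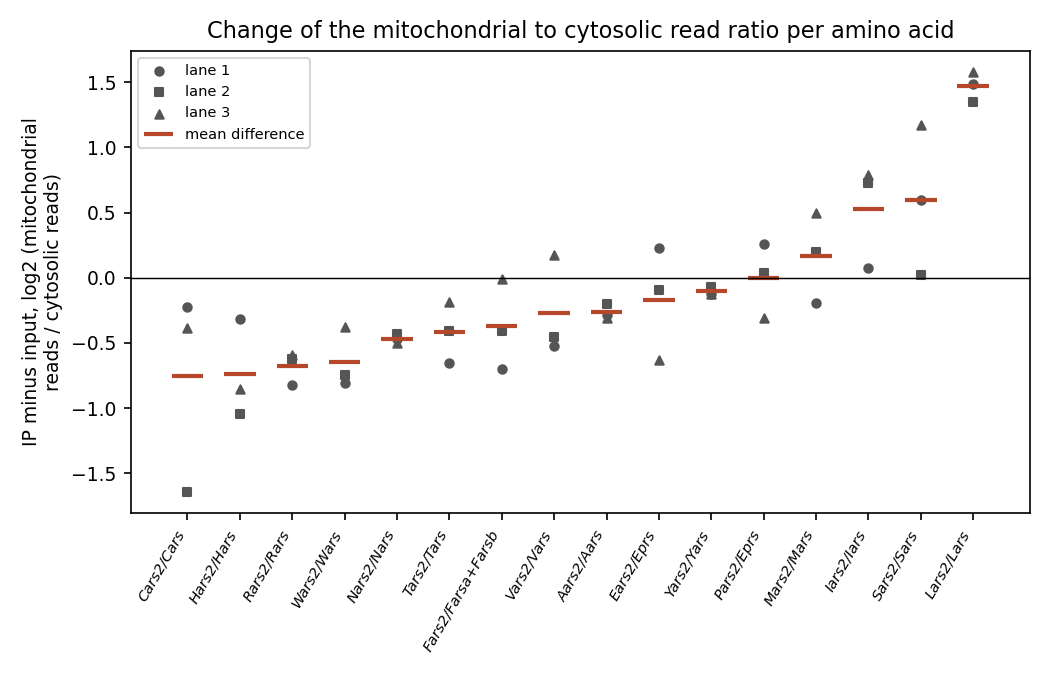
IP minus input difference in the log2 ratio of mitochondrial to cytosolic synthetase reads for the 16 pairs, with one symbol for each of the 3 lanes and a line at the mean. The mean lies below 0 in 12 pairs, with all lanes below 0 in 9, and is highest for Lars2 at 1.47.

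Genes that act before and after the synthetases were read from lists of tRNA biology. Of 4 proofreading genes, which clear wrongly charged or D-aminoacyl-tRNA, 3 were higher in IP and 0 lower, with a median log2 fold change of 0.70. Among all tested genes, 21.3% were higher and 23.4% lower. Dtd2, a D-aminoacyl-tRNA deacylase that in animals also clears mischarged alanine, had 21.2, 18.7 and 24.3 CPM in IP libraries, against 9.67, 9.38 and 10.5 CPM in input libraries (log2 fold change 1.12, adjusted p = 0.000191). Dtd1, the other deacylase, had 99.9, 99.6 and 97.4 CPM in IP libraries, against 60.6, 66.4 and 57.6 CPM in input libraries (log2 fold change 0.69, adjusted p = 0.000147). Aarsd1, an editing protein related to Aars, had 23.5, 23.8 and 24.1 CPM in IP libraries, against 14.3, 16.3 and 13.1 CPM in input libraries (log2 fold change 0.71, adjusted p = 0.00183). Prorsd1 was at 0.12 and was not called.

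Of 13 genes of cytosolic tRNA processing and export, 7 were higher in IP and 1 was lower, with a median log2 fold change of 0.38. These counts stand beside 21.3% of all tested genes higher and 23.4% lower. Without input replicate 2, 4 were higher, and without IP replicate 2, IP replicate 3, input replicate 2 or input replicate 3, or with total counts or the length and GC correction, 0 were lower. The RNase P and MRP subunits Pop7, Rpp25 and Rpp38, which trim tRNA precursors, were higher with log2 fold changes of 1.47, 1.44 and 0.98, while Pop1 had -0.23 and was not called. Rpp25 had 56.0, 46.1 and 59.0 CPM in IP libraries, against 21.8, 17.3 and 20.5 CPM in input libraries. Xpot, the tRNA exporter, had 94.98, 86.5 and 89.5 CPM in IP libraries, against 73.2, 69.6 and 75.8 CPM in input libraries (log2 fold change 0.31, adjusted p = 0.0172). Ssb, which binds the ends of new tRNA precursors, Nsun2, a tRNA methyltransferase, and Tsen34, of the splicing endonuclease, were the others that rose, and the methyltransferase Trdmt1 fell (log2 fold change -0.86, adjusted p = 0.0369).

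On the mitochondrial side, 4 of 14 tRNA processing and modification genes were higher and 0 lower, with a median log2 fold change of 0.42, beside 21.3% of all tested genes higher. With total gene counts as the scaling 6 of the 14 were higher, beside 25.8% of all genes, and with the length and GC correction 7, beside 39.6%. The 4 became 1 without IP replicate 1, 0 without input replicate 2 and 2 without input replicate 3. Among them were Trnt1, which adds the CCA end to tRNA, at 0.45, Gtpbp3 at 0.66 and Nsun3 at 0.62, both of which modify the anticodon loop. Of 9 mitochondrial translation factors, Tsfm (0.95), Mrrf (0.94) and Mtif3 (0.73) were higher in log2 fold change and Gfm2, an elongation factor of ribosome recycling, was lower at -0.88 (adjusted p = 0.00177). That count of 3 higher and 1 lower stood beside 21.3% of all tested genes higher and 23.4% lower. It was 5 and 1 with total gene counts, beside 25.8% of all genes higher. With the length and GC correction it was 7 and 0, beside 39.6% of all genes higher. Mtif2, an initiation factor and the most abundant of these, had 43.3, 48.5 and 38.1 CPM in IP libraries, against 34.3, 37.6 and 34.6 CPM in input libraries, without overlap, but did not pass the test (adjusted p = 0.0773). Of 4 genes that make glutaminyl- and formylmethionyl-tRNA, only Gatc was higher, a share near the 21.3% of all tested genes. Gatc, a subunit of the amidotransferase that makes glutaminyl-tRNA in mitochondria, had 130.9, 108.7 and 103 CPM in IP libraries, against 62.0, 60.4 and 64.3 CPM in input libraries (log2 fold change 0.88, adjusted p = 6.28e-05). Qrsl1 and Gatb, the other subunits, had log2 fold changes of 0.02 and 0.04, and Mtfmt, which formylates the initiator tRNA, had -0.06, and none of them was called.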

How the data were processed

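TRAP-seq libraries, 3 IP and 3 input, were grouped by their titles. STAR 2.0.0e, HTSeq and the build mm10 are named in the submitters' processing notes. For HTSeq, the version, strand setting and annotation: not given in the sources used here. The deposited values are raw read counts per gene, made by the authors without normalization. Of the listed reads, 13.1% to 13.7% in IP and 21.1% to 23.5% in input had no feature, 2.70% to 2.84% and 10.6% to 12.5% were ambiguous, and both were left out of library sizes, as were reads of no named gene. Unequal ambiguous shares can lower overlapping genes unequally.

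Counts were filtered (filterByExpr), scaled by TMM and tested with edgeR 4.0.16 (R 4.3.3) by the quasi-likelihood test, with Benjamini-Hochberg adjustment over 16506 genes and a threshold of 0.05; the test was checked on simulated counts. CPM are TMM-scaled. Lengths come from GENCODE M21, promoters from RefSeq and shared sequence from BLAST 2.17.0. Pair ratios used raw reads with none added and a 2-sided exact permutation test. Replicate libraries of a group differed by more than sampling noise (chi-square per degree of freedom 23.4 to 67.9). Replicate numbers match the lane in the labels. Deviations from the group means had small correlations of 0.0872, 0.0608 and 0.0431 between same-numbered IP and input libraries. Between libraries of different numbers they ran from -0.0566 to 0.00144. Whether same-numbered libraries share animals is not stated. Alternatives were DESeq2 1.42.0, limma-voom (limma 3.58.1), other scalings, other filters, a length and GC offset, a replicate block and leaving out each library. All members could be named; from a neighbouring list the rule took the 2 called genes that moved most in its main direction, the 1 with the largest opposite change, the most abundant one, and every gene of a list of at most 4, and other genes named from these lists were chosen after their values were seen. The members and lists were chosen with earlier results of these data known.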

Additional observations from a re-analysis of the deposited data

How the results depend on the processing

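No member that passed the test changed sign under any of the 16 alternatives, and 8 of 13 kept their call under all of them: Aars, Farsb, Gars, Hars, Kars, Rars, Yars and Lars2. Each of Nars, Tars, Wars, Iars2 and Yars2 lost its call in at least one, with adjusted p (edgeR) of at most 0.0701 for Nars, 0.0922 for Tars, 0.0814 for Wars, 0.114 for Iars2 and 0.113 for Yars2. Leaving out one library gave 7 to 11 cytosolic and 1 to 3 mitochondrial genes higher, 1 without input replicate 2 and 1 without input replicate 3, where Lars2 remained, and 2673 to 3418 higher and 3109 to 4095 lower genes in all. Sars2 passed without IP replicate 2 (adjusted p = 0.0347), and Cars passed without IP replicate 1 (0.0164).

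With the length and GC offset, 5743 genes of all tested were higher and 2027 lower, the median of all genes moved to 0.31, and 13 cytosolic genes were higher, with Cars, Dars and Eprs added, and 4 mitochondrial genes, with Mars2 added (adjusted p = 0.0255). Offset and replicate block together gave 5779 higher and 2099 lower. The cytosolic median minus that of all genes was 0.40, and 0.33 with at least 1 CPM in 3 libraries, 0.33 with the offset, 0.33 with offset and replicate block, and 0.58 without a filter. The replicate block alone left 10 cytosolic and 3 mitochondrial genes higher and changed no member's call. Pair counts stayed at 7 to 8 below and 2 to 3 above. The causes of these moves were not tested. The comparison of protein sequences that had been planned was not run. Whether depth limited the calls was not tested; the lowest member count was 91 reads, for Sars2 in an input library.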

Other observations

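Synthetases fall into a pair of structural classes, which differ in the fold of the catalytic domain. Of 9 cytosolic class I genes, 3 were higher in IP, with a median log2 fold change of 0.38, and of 10 class II genes, 7 were higher, with a median of 0.41, beside 21.3% of all tested genes higher. The 7 became 5 when 3 libraries had to reach 1 CPM, or without IP replicate 3 or any one input library. They became 6 without IP replicate 2. Class I had 2 without IP replicate 2, input replicate 2 or input replicate 3, where Wars was lost, and 4 without IP replicate 1. The difference between the classes was not tested. Eprs, which holds a domain of each class, was in neither list.

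Tarsl2, a threonyl-tRNA synthetase related to Tars and not among the 36, had 45.2, 33.6 and 43.4 CPM in IP libraries, against 40.0, 39.1 and 40.4 CPM in input libraries, with a log2 fold change of 0.03 (adjusted p = 0.866, edgeR). Its groups overlapped, and it passed the test with the length and GC correction, which moved the median of all genes to 0.31.

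Of 6 genes that make and use selenocysteinyl-tRNA, 2 were higher in IP and 0 lower, beside 21.3% of all tested genes higher and 23.4% lower. The median log2 fold change of the 6 was -0.06. Without IP replicate 3, input replicate 2 or input replicate 3, 1 gene was higher. Sephs2, which makes the selenium donor, had 40.8, 38.0 and 39.9 CPM in IP libraries, against 23.0, 24.3 and 18.3 CPM in input libraries (log2 fold change 0.85, adjusted p = 0.000387, edgeR). Eefsec, the elongation factor for this tRNA, had 10.3, 5.87 and 10.4 CPM in IP libraries, against 5.48, 4.27 and 4.81 CPM in input libraries (log2 fold change 0.87, adjusted p = 0.0171, edgeR). Sephs1, the most abundant of the 6 and related to Sephs2, had 43.8, 44.7 and 42.1 CPM in IP libraries, against 51.9, 49.1 and 47.5 CPM in input libraries, and was not called. The enzymes Pstk and Sepsecs, which turn seryl-tRNA into selenocysteinyl-tRNA, had log2 fold changes of -0.13 and -0.34 and were not called.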
